A study of Mus musculus with 39 samples.

Results

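Genes of the senescence and p53 response were followed in the inferior colliculus of ageing mice, 8 in all: Cdkn1a, Cdkn2a, Cdkn2c, Trp53, Mdm2, Gadd45a, Gadd45b and Gadd45g. Members were chosen by symbol, as all probe sets whose single annotated gene is 1 of these 8. Of the 8 genes, 7 were measured, on 11 of the 22626 probe sets tested, against 12393 genes named by a single symbol in the whole series. No probe set had Trp53 as its single annotated gene, so the gene that encodes p53 itself has no value here. The 691 probe sets annotated with several genes were not taken as members. No member probe set differed between hearing groups at an adjusted p under 0.05. Cdkn1a came closest, with higher mean levels in both presbycusis groups than in both groups with good hearing.

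The tissue, the auditory hub of the midbrain, came from 39 CBA/CaJ mice. This inbred strain is a common model of presbycusis, the loss of hearing with age. Each mouse gave total RNA for 1 Affymetrix MOE430A array. The mice were untreated, aged normally and shared a quiet room, and their hearing had been recorded some days before the tissue was taken. Young controls with good hearing numbered 8 (4 females, 4 males), and 17 mice (10 females, 7 males) were middle-aged, also with good hearing. Mild presbycusis was represented by 9 mice (4 females, 5 males) and severe presbycusis by 5 mice (4 females, 1 male). No ages were given in these sources, so age and hearing loss cannot be told apart in the comparisons with presbycusis groups. In whole tissue, a change in the number of cells of a type and a change of RNA per cell cannot be told apart either.

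p53, encoded by Trp53, is a transcription factor that is stabilised by DNA damage and other stress. It induces Cdkn1a, which encodes the cyclin-dependent kinase inhibitor p21 and can hold cells out of the cycle, and Mdm2, which encodes the ubiquitin ligase that returns p53 to a low level. Cdkn2a encodes p16INK4a, an inhibitor of the kinases CDK4 and CDK6, and in another reading frame p19ARF, which restrains MDM2. Cdkn2a and Cdkn1a are both widely used as marks of cell senescence. In adult brain, where most neurons do not divide, these genes are also studied as stress responses.

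Because Cdkn1a carries the main pattern here and is a textbook target of p53, the 250 bases before each of its annotated starts are shown from the RefSeq promoter table (GRCm38.p6, plus strand, 5′ to 3′). Capitals mark a match to the p53 consensus, a palindrome of 20 letters in which a 10-letter element is followed at once by a copy of itself.
Cdkn1a start 1, chr17:29090729-29090978: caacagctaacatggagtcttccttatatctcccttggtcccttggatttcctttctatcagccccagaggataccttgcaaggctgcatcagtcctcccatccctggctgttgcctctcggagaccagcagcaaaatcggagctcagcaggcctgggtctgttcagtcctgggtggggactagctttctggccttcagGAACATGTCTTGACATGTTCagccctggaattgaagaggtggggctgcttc
Cdkn1a start 2, chr17:29093519-29093768: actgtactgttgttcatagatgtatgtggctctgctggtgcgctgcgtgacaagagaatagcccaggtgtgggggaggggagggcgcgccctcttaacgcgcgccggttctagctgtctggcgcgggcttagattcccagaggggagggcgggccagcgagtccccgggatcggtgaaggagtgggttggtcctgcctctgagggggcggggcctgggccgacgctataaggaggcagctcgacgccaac
The match in the window of start 1, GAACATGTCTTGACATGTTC, agrees at 19 of 20 letters and lies 51 to 32 bases before the start. The window of start 2 holds none. The table held 11 windows, with 250 bases before and 50 after each start, for all 8 member genes. The exact consensus was searched first and was found in 0 of the 11 windows and in 3 of all 32851 windows (0.00913%). The allowance of 1 differing letter was chosen after that, once the element had been recognised by eye in the Cdkn1a sequence. With it, 29 windows matched (0.0883%), and the only member window among them was that of Cdkn1a start 1. The first search also covered 3 other motifs on both strands. The motif CCAAT was found in 7 of the 11 member windows and in 37.4% of all windows. The motif TATAAA was found in 3 of the 11 and in 13.6% of all, and the motif CACGTG in 4 of the 11 and in 7.15% of all. These matches describe letters in a window, and no binding was measured.

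Values are signal intensities. Differences are given in units of log2(intensity + 16), where the added 16 makes the fold of dim probe sets look smaller than it is. Each difference has its standard error (SE) from a limma fit across all probe sets with sex as a covariate. A probe set was called when its 2-sided p was under 0.05 after Benjamini-Hochberg adjustment across all 22626. Median intensity per array ranged from 150 to 224. Arrays that stood apart by a high summed signal of cerebellar markers were those of young replicate 2 and middle-aged replicates 7 and 8 (up to 36295, against 4467 or less in the presbycusis mice). Precision is limited by the number of arrays, which is only 5 in severe presbycusis.

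Cdkn1a was measured on a pair of probe sets. On 1424638_at the intensities in severe presbycusis were 308, 333, 444, 517 and 1704. In mild presbycusis they ran from 270 through a median of 349 to 844. In middle-aged mice they ran from 134 through a median of 266 to 365. In young controls they ran from 172 through a median of 277 to 1020. The groups overlapped: 4 of 9 mild and 3 of 5 severe mice lay above the highest middle-aged mouse, but 1 young male, replicate 8, was brighter than every mild mouse. The brightest mouse of all, severe replicate 4 at 1704, was the only male of its group.

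**Figure D1:**
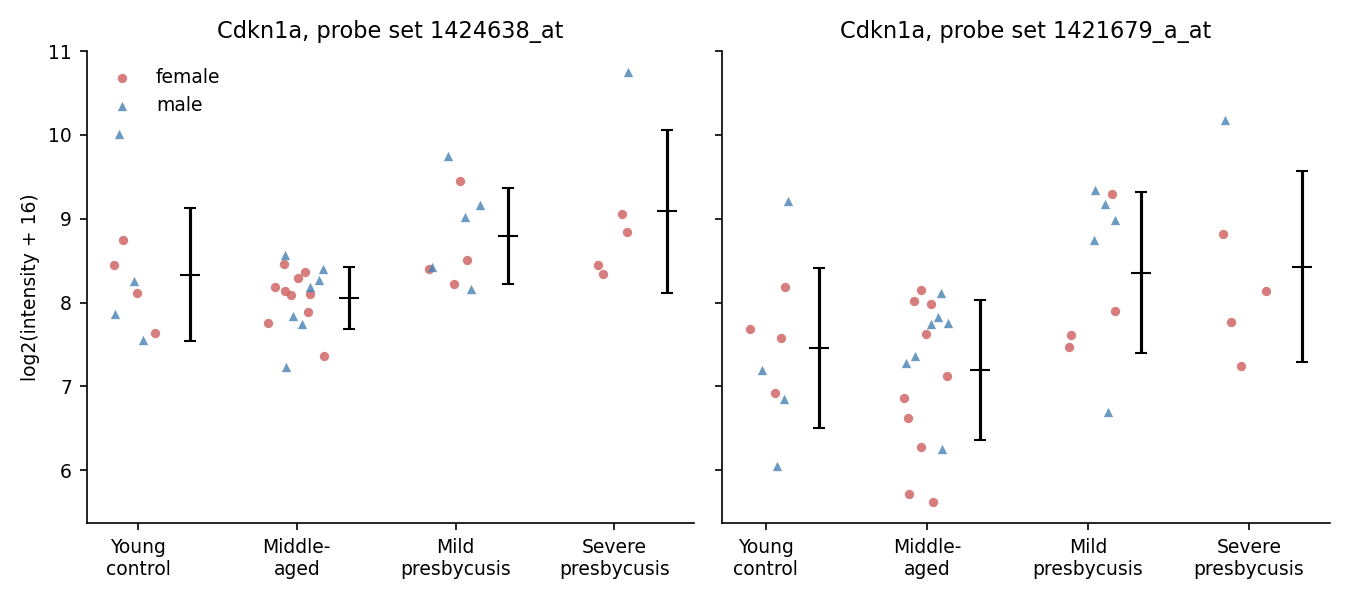
Cdkn1a in each mouse on both of its probe sets, as log2(intensity + 16) on the vertical axis, by hearing group. Circles are females, triangles are males, and bars give the mean and SD of each group. On 1424638_at the means were 8.33 in young, 8.05 in middle-aged, 8.79 in mild and 9.09 in severe mice, with 1 bright male among the young and 1 among the severe mice.

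The mean log2 level on 1424638_at was lowest in middle-aged mice (8.05 ± 0.37 SD, n = 17). It was followed by young controls (8.33 ± 0.79, n = 8), mild presbycusis (8.79 ± 0.57, n = 9) and severe presbycusis (9.09 ± 0.97, n = 5). The place of severe above mild presbycusis rested on severe replicate 4, without which severe minus mild was -0.06 (limma adjusted p 0.985). Neighbours in this order did not differ beyond their spread. Middle-aged minus young was -0.25 (SE 0.24, limma adjusted p 0.998), mild minus young was 0.45 (SE 0.28, adjusted p 0.824) and severe minus mild was 0.39 (SE 0.32, adjusted p 1). The wider steps were 0.84 for severe minus young (SE 0.33, adjusted p 0.45), 0.70 for mild minus middle-aged (SE 0.24, adjusted p 0.754) and 1.09 for severe minus middle-aged (SE 0.29, adjusted p 0.0998). These comparisons share their control mice and are not independent of each other.

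The second probe set, 1421679_a_at, gave the same order of group means with all mice included. Severe minus mild was 0.24 (SE 0.49, limma adjusted p 1), but -0.19 without severe replicate 4 (adjusted p 0.97) and -0.07 in females alone (adjusted p 0.985). Its intensities in severe presbycusis were 136, 202, 265, 436 and 1145, and the brightest mouse was again replicate 4. In mild presbycusis they ran from 87.7 through a median of 413 to 632. Middle-aged mice ran from 33.3 through a median of 149 to 267, and young controls from 50.2 through a median of 153 to 579. Here too the groups overlapped, with 5 of 9 mild mice and 2 of 5 severe mice above the highest middle-aged mouse. Severe minus middle-aged was 1.33 (SE 0.44, limma adjusted p 0.353) and mild minus middle-aged was 1.09 (SE 0.35, adjusted p 0.641). Against young controls the differences were 1.11 in severe mice (SE 0.49, adjusted p 0.58) and 0.87 in mild mice (SE 0.41, adjusted p 0.731).

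Setting the mean of both presbycusis groups against the mean of both groups with good hearing gave the smallest adjusted p of any member. On 1424638_at the difference was 0.77 (SE 0.20, 95% interval 0.36 to 1.17, limma adjusted p 0.0521), and 14 of 14 presbycusis mice lay above the mean of the mice with good hearing. On 1421679_a_at it was 1.10 (SE 0.30, 95% interval 0.49 to 1.71, adjusted p 0.0717), with 12 of 14 mice above that mean. That mean pools all 25 mice with good hearing, most of them middle-aged, whereas the difference weighs the young and middle-aged groups equally. On 1424638_at the lowest presbycusis mouse, at 8.16, was barely above the pooled mean of 8.14 and below the young mean of 8.33. Only 1 of 14 on 1424638_at and 3 of 14 on 1421679_a_at lay above the highest mouse with good hearing. Neither difference passed the threshold. In the same comparison 190 of the 22626 probe sets were called (0.84%), and 0 of the 11 member probe sets. The F-test across the 4 groups gave Cdkn1a an adjusted p of 0.174 and 0.326 on its probe sets, where 0.53% of all probe sets were called and again 0 of the 11. Both were among the 2 of 11 with an unadjusted F-test p under 0.05 (5.89% of all probe sets).

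Single bright males moved these values in opposite ways. Without young replicate 8 the difference on 1424638_at became 0.88 (limma adjusted p 0.0052) and on 1421679_a_at 1.21 (adjusted p 0.0276), both called. Without severe replicate 4 they were 0.56 (adjusted p 0.25) and 0.90 (adjusted p 0.251). In females alone they were 0.51 (adjusted p 0.145) and 0.73 (adjusted p 0.329). Severe minus young on 1424638_at was 0.39 without severe replicate 4 (adjusted p 0.783), less than the 0.84 of all mice by over 1.5 times. Likewise, severe minus middle-aged on 1424638_at went from 1.09 to 0.66 (adjusted p 0.637) and severe minus young on 1421679_a_at from 1.11 to 0.69 (adjusted p 0.762). Among females on 1424638_at, the severe median was 389 (308 to 517, n = 4) and the mild median 336 (283 to 685, n = 4). Middle-aged females had a median of 262 (149 to 337, n = 10) and young females 298 (183 to 413, n = 4). On 1421679_a_at the female medians were 233 in severe, 201 in mild, 112 in middle-aged and 182 in young mice. Without the 3 arrays with cerebellar signal, presbycusis minus good hearing was 0.82 (adjusted p 0.053) and 1.18 (adjusted p 0.0652). Males minus females, over all groups, differed by 0.27 on 1424638_at (SE 0.19, adjusted p 0.998) and by 0.48 on 1421679_a_at (SE 0.28, adjusted p 0.998).

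Across the 39 mice, the residuals of both Cdkn1a probe sets from their group and sex means moved together. Pearson's r was 0.793 and Spearman's rho 0.813, each with a permutation p of 1e-05, the smallest that 100000 resamples can give (adjusted p 5e-05 over the 5 pairs of probe sets of 1 gene). Without the 2 mice farthest from the median, r was 0.759. The probe sets share each mouse's RNA and array, so this is agreement between measurements and not between experiments.

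**Figure D2:**
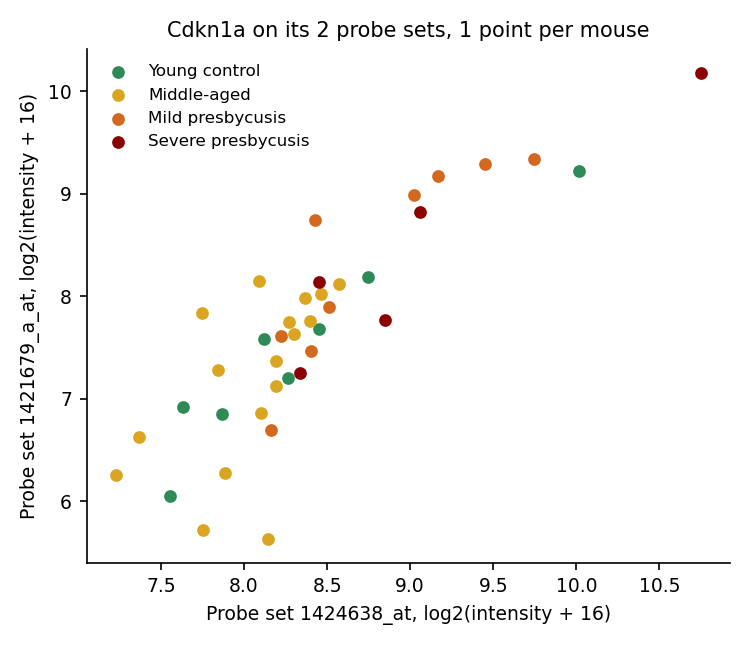
Cdkn1a on 1424638_at (horizontal axis) against 1421679_a_at (vertical axis), both as log2(intensity + 16), with 1 point per mouse coloured by group. The mice bright on one probe set were bright on the other, and severe replicate 4 lies at the top right with 10.75 and 10.18.

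Other measures moved with the groups or with Cdkn1a. Of 15 measured microglial marker genes, 10 rose in presbycusis against good hearing and 0 fell. Their summed intensity was 7119 to 10121 in young, 9007 to 12373 in middle-aged, 11032 to 15685 in mild and 13420 to 19807 in severe mice, with no marker listed at 0. Among markers of other cells, 0 of 10 neuronal and 0 of 8 cerebellar genes lay above 0 in presbycusis against good hearing. Their medians were -0.10 and -0.30, with 0 called, and of 8 astrocyte markers 1 rose and 0 fell. The median summed cerebellar signal was 3768 in young, 3866 in middle-aged, 3875 in mild and 3679 in severe mice. The arrays that stood apart by cerebellar signal were all of mice with good hearing, and their part in the -0.30 was not tested. The part of any cell type in the Cdkn1a values was not tested. Array controls give a ratio of 3′ to 5′ signal, which reflects how complete the labelled RNA is. Its median log2 value was 2.54 in young, 2.44 in middle-aged, 2.31 in mild and 2.18 in severe mice, with overlapping ranges. Its mean was 2.50 in young, 2.46 in middle-aged, 2.29 in mild and 2.34 in severe mice, higher in severe than in mild. It was correlated with the Cdkn1a residuals at r = -0.465 on 1421679_a_at (rho -0.435, r -0.434 without the 2 farthest mice, permutation p 0.00297, adjusted p 0.0163 over 11 member probe sets). On 1424638_at r was -0.346 (rho -0.314, permutation p 0.0315, adjusted p 0.116). With this ratio as a covariate, presbycusis minus good hearing was 0.67 on 1424638_at (limma adjusted p 0.116) and 0.91 on 1421679_a_at (adjusted p 0.151).

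The INK4 inhibitors act on CDK4 and CDK6, upstream of the retinoblastoma protein. Cdkn2a, on 1450140_a_at, had intensities of 24.97, 73.2, 78.9, 86.4 and 101 in severe presbycusis. Mild mice ran from 43.2 through a median of 83.1 to 104, middle-aged mice from 35.8 through 72.2 to 127 and young mice from 45.7 through 69.2 to 91.0. The groups overlapped almost wholly, and the dimmest mouse of all was a severe one. Presbycusis minus good hearing was 0.03 (SE 0.14, 95% interval -0.25 to 0.32, limma adjusted p 0.984), and severe minus young was 0.02 (SE 0.23, 95% interval -0.45 to 0.49, adjusted p 0.991). This probe set was among the 40% dimmest, where a change is hard to see, and its annotation does not separate the p16INK4a from the p19ARF transcript.

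Cdkn2c, which encodes p18INK4c, was measured on 1416868_at. The severe mice had 338, 357, 368, 396 and 616. Mild mice ran from 267 through a median of 442 to 605, middle-aged mice from 313 through 380 to 541 and young mice from 329 through 417 to 492. Its spread between mice was among the narrowest of the members, and the ranges of the groups overlapped widely. The brightest mouse of all was a severe female, replicate 1. Presbycusis minus good hearing was 0.05 (SE 0.09, 95% interval -0.13 to 0.23, limma adjusted p 0.947).

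Mdm2, the feedback inhibitor of p53, was measured on 1423605_a_at and 1427718_a_at. On 1423605_a_at the severe mice had 236, 274, 304, 453 and 462, inside the middle-aged range of 200 to 698 (median 337). On 1427718_a_at they had 137, 138, 155, 172 and 208, against 153 to 295 (median 197) in middle-aged mice. On that probe set 5 of 5 severe mice lay below the middle-aged mean. The highest of them, replicate 2, was barely below it (7.807 against 7.816 in log2 units) and lay above the middle-aged median. Severe minus middle-aged was -0.37 on 1427718_a_at (SE 0.14, limma p 0.00935, adjusted p 0.506) and -0.03 on 1423605_a_at (SE 0.20, adjusted p 0.996). Presbycusis minus good hearing was -0.14 on 1427718_a_at (SE 0.09, adjusted p 0.769) and 0.09 on 1423605_a_at (SE 0.13, adjusted p 0.94), so the probe sets differed in sign. Their residuals correlated at r = 0.293 over the 39 mice (rho 0.369, r 0.339 without the 2 farthest, permutation p 0.0706, adjusted p 0.176).

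The GADD45 proteins are small stress sensors that bind p21, PCNA and the kinase MAP3K4. Gadd45a, which p53 can induce, was measured on 1449519_at. Its severe values were 89.6, 107, 159, 165 and 193. Mild mice ran from 91.1 through a median of 180 to 231, middle-aged mice from 76.3 through 131 to 192 and young mice from 62.1 through 123 to 135. Of the 9 mild mice, 6 were brighter than every young mouse. Mild minus young was 0.46 (SE 0.17, 95% interval 0.11 to 0.80, limma p 0.0103, adjusted p 0.585), while severe minus young was 0.24 (SE 0.20, adjusted p 0.852). Presbycusis minus good hearing was 0.25 (SE 0.12, p 0.0485, adjusted p 0.62).

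Gadd45b, which is also induced by neuronal activity and inflammatory signals, had 3 probe sets. Presbycusis minus good hearing was -0.12 on 1420197_at (SE 0.13, limma adjusted p 0.884), -0.04 on 1449773_s_at (SE 0.16, adjusted p 0.979) and -0.33 on 1450971_at (SE 0.17, adjusted p 0.636). The last 2 were among the 40% dimmest probe sets. On 1420197_at the severe mice had 81.5, 140, 142, 187 and 273, with both the lowest and the highest value of all 39 mice. Residuals of the 3 probe sets correlated pairwise at r = 0.00122, 0.24 and -0.00772 (rho 0.104, 0.176 and 0.0824, permutation p 0.994, 0.141 and 0.963, lowest adjusted p 0.234).

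Gadd45g, a relative that restrains proliferation in several cell types, was measured on 1453851_a_at. The severe mice split into 117 and 144 on one side and 323, 361 and 380 on the other. Mild mice ran from 60.6 through a median of 205 to 627, middle-aged mice from 28.01 through 170 to 310 and young mice from 119 through 178 to 340. Severe minus middle-aged was 0.65 (SE 0.34, 95% interval -0.04 to 1.33, limma adjusted p 0.871), and presbycusis minus good hearing was 0.42 (SE 0.23, adjusted p 0.694). Its residuals followed the 3′ to 5′ ratio more closely than those of any other member (r = -0.596, rho -0.453, r -0.522 without the 2 farthest, permutation p 2e-05, adjusted p 0.00022). With that ratio as a covariate, severe minus middle-aged was 0.49 (adjusted p 0.851) and presbycusis minus good hearing was 0.24 (adjusted p 0.845).

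**Figure D3:**
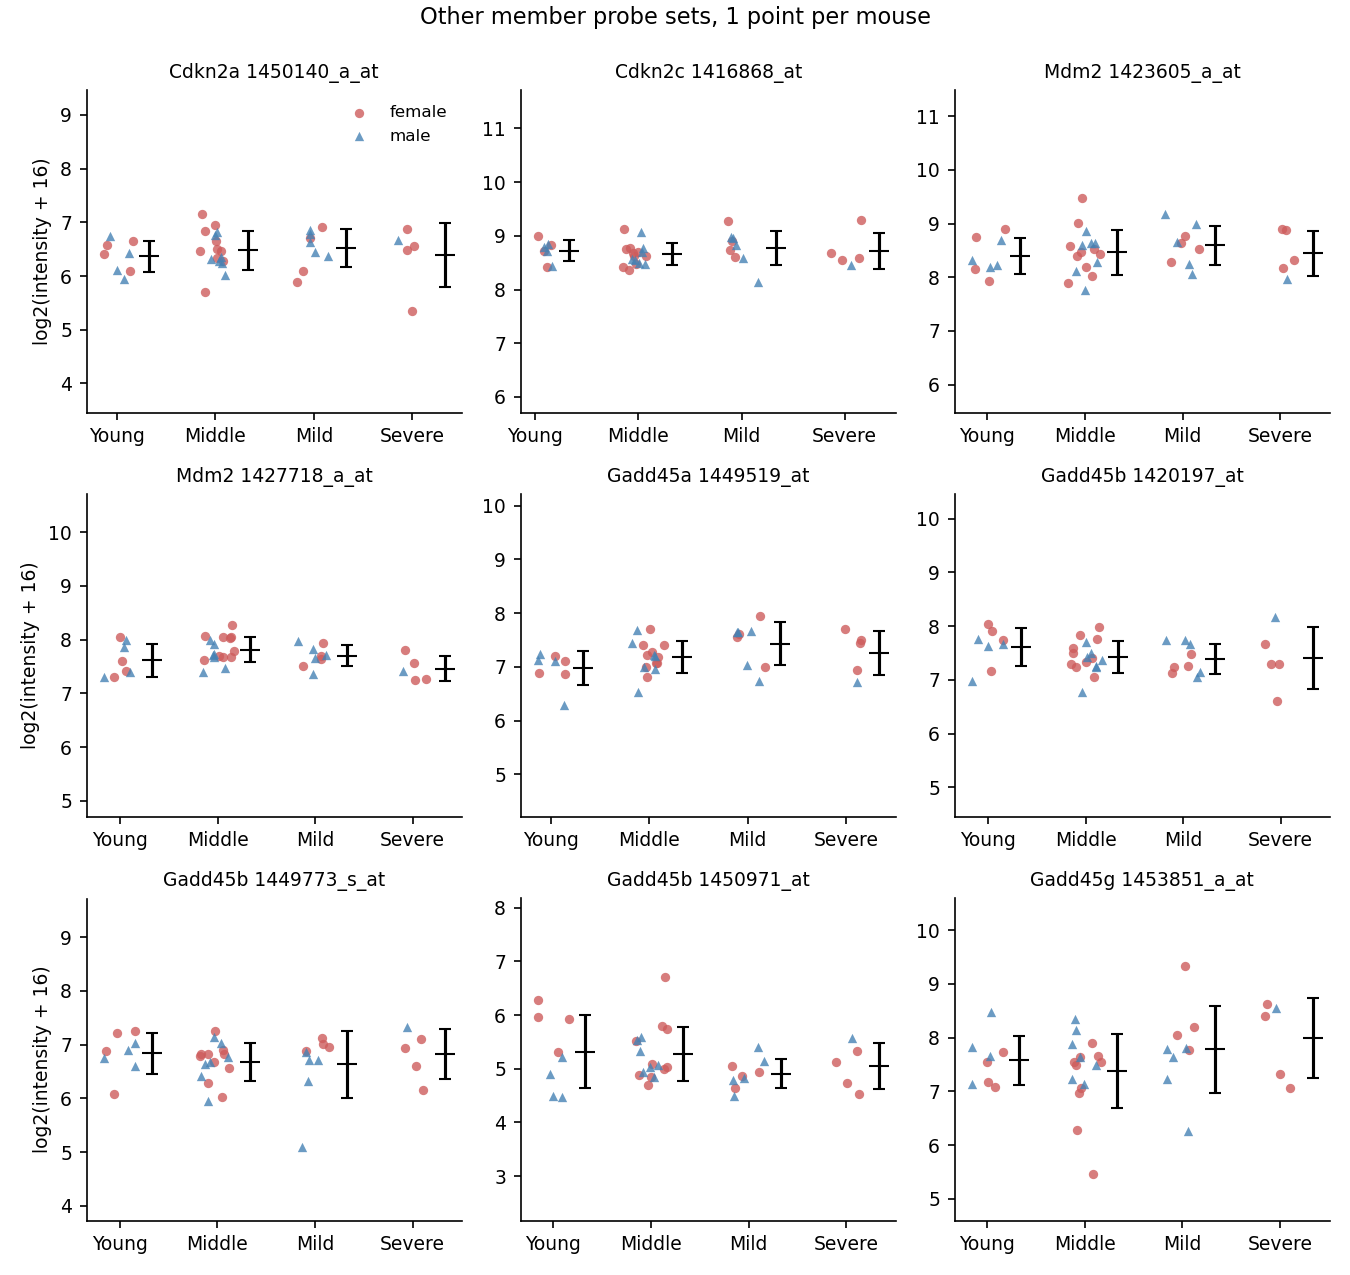
The other 9 member probe sets in each mouse, as log2(intensity + 16) by hearing group, with circles for females, triangles for males and bars for the mean and SD. Every panel spans the same number of log2 units. The groups overlap in each panel, and Gadd45g on 1453851_a_at has the widest spread.

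Middle-aged against young mice sets groups that both hear well side by side. There 1 of 22626 probe sets was called (0.00442%) and 0 of the 11 member probe sets, and 0 of the 11 had an unadjusted p under 0.05 (5.09% of all probe sets). Against young controls, 0 of 11 were called in mild (0.168% of all) and 0 in severe presbycusis (0.53%), with 2 at an unadjusted p under 0.05 in each (6.61% and 7.66% of all). Against middle-aged mice, 0 of 11 were called in mild (0.11%) and 0 in severe presbycusis (0.486%), with 2 and 3 at an unadjusted p under 0.05 (4.11% and 5.91% of all). In severe against mild mice 0 were called among members and among all probe sets (0%), and 0 of 11 had an unadjusted p under 0.05 (3.73% of all). In presbycusis against good hearing 3 of 11 did (7.99% of all). Cdkn1a supplied 4 and 5 of the 7 group comparisons at an unadjusted p under 0.05 on its 2 probe sets, Gadd45a 2 and Mdm2 1. The median difference of the 11 in presbycusis against good hearing was 0.05, against 0.00 over all probe sets.

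**Figure D4:**
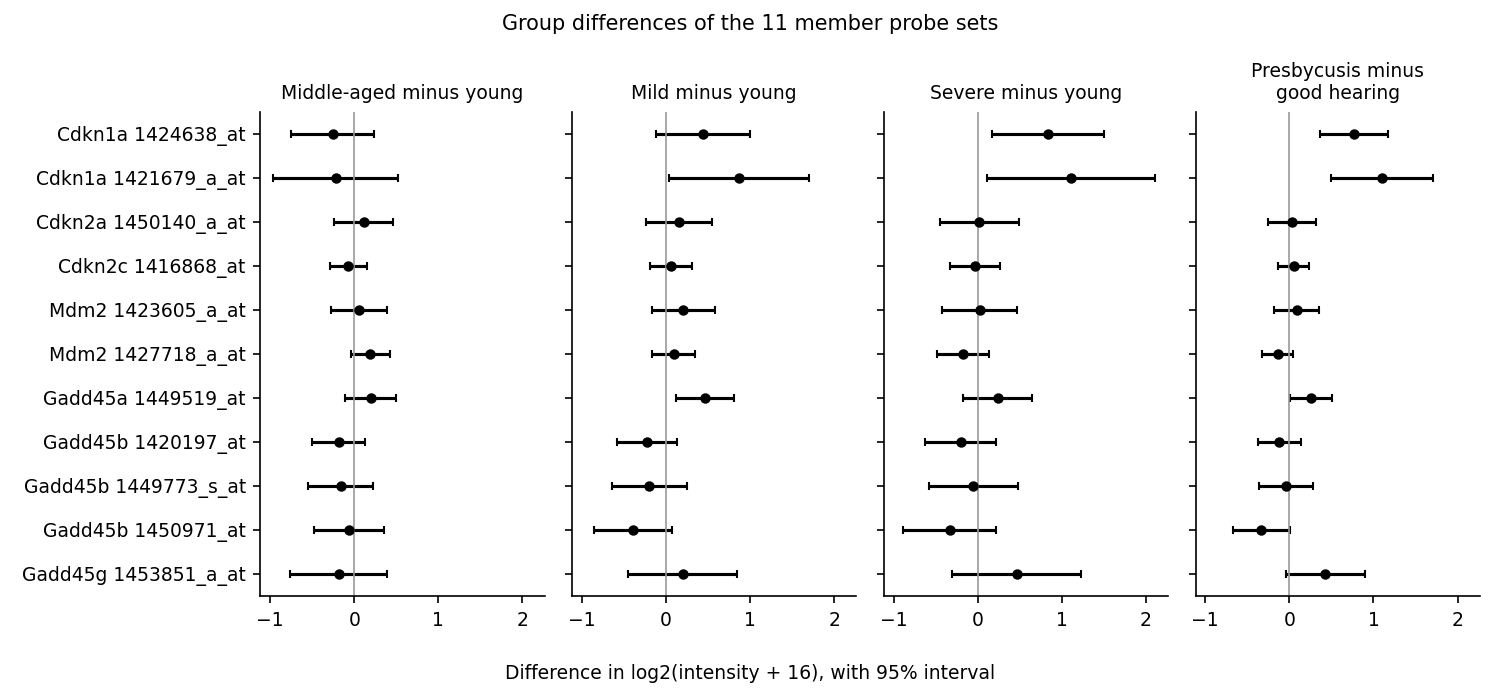
Differences of the 11 member probe sets in log2(intensity + 16), with 95% intervals, for middle-aged, mild and severe mice against young controls and for presbycusis against good hearing. Before adjustment for the number of probe sets, intervals wholly above 0 belong to Cdkn1a and Gadd45a alone. They are those of both genes in presbycusis against good hearing, of Gadd45a and Cdkn1a 1421679_a_at in mild mice, and of both Cdkn1a probe sets in severe mice.

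No member was called between the sexes. Male minus female was called for 0 of 11 (0.0486% of all probe sets), with 0 at an unadjusted p under 0.05 (3.73%). The sex by group interaction was called for 0 members in middle-aged (0% of all) and in mild mice (1.23%) against young controls. At an unadjusted p under 0.05 there were 1 and 2 members (7.27% and 15.4% of all). Gadd45b on 1450971_at had a median of 45.3 in young females (23.5 to 61.3, n = 4) and 10.2 in young males (6.32 to 21.2, n = 4), against 14.03 and 12.5 in mild females and males. Its interaction in mild mice was 1.15 (SE 0.41, limma adjusted p 0.151), and that of Gadd45g was -1.38 (SE 0.59, adjusted p 0.238). The interaction in severe mice was not tested, as that group had 1 male.

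No pair of members passed a test of moving together from mouse to mouse. Over the 21 pairs of member genes, on their brightest probe sets and after removal of group and sex means, the lowest adjusted permutation p was 0.465. The widest correlation, between Cdkn2a and Gadd45b, was r = 0.355 (rho 0.178, permutation p 0.0266), and without the 2 farthest mice it was 0.223. Cdkn1a and Mdm2, both p53 targets, had r = -0.108 (rho -0.126, permutation p 0.517, adjusted p 0.962). Cdkn1a and Gadd45a had r = 0.005 (rho -0.0296, permutation p 0.976, adjusted p 0.976). By the highest Pearson correlation over the 39 arrays, the genes most like Cdkn1a were Rce1 (r 0.614) and Kcnma1 (r 0.589). Those most like Mdm2 were Eif1ax (0.757) and Pik3ca (0.748), and those most like Gadd45a were Slc25a5 (0.708) and Rhoa (0.695). For Cdkn2a they were Rep15 (0.735) and Krtap28-13 (0.707), and for Gadd45b on 1420197_at Prf1 (0.717) and Apon (0.716). For Cdkn2c they were Serinc4 (0.602) and Zpr1 (0.583), and for Gadd45g Ddrgk1 (0.669) and Xbp1 (0.651). Being the highest of many, these correlations are a description.

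The other genes of the p53 response gave no calls on their brightest probe sets in presbycusis against good hearing. Of 36 listed p53 target genes without the members, 32 were measured, and in presbycusis against good hearing 0 rose and 0 fell, with 17 above and 15 below 0 and a median of 0.01. There 4 of the 32 had an unadjusted p under 0.05 (7.99% of all probe sets). The lowest limma adjusted p among the 32 was 0.0787, near the 0.0717 of Cdkn1a on 1421679_a_at. In severe against young mice 0 were called as well, and the smallest p-values belonged to Abhd4, a lipid hydrolase gene (0.33, SE 0.12, limma adjusted p 0.347), and Fbxw7, which encodes a ubiquitin ligase subunit (-0.31, SE 0.10, adjusted p 0.271). Abhd4 on a dimmer probe set, 1416315_at, was called in severe against middle-aged mice (0.44, SE 0.09, adjusted p 0.00515). Of 21 regulators and relatives of p53, 16 were measured and 0 were called in presbycusis against good hearing, with a median of 0.01. Of the other CDK inhibitors, 4 of 5 were measured and 0 called, and Cdkn1b, which encodes p27, differed by -0.55 in severe against young mice (SE 0.20, adjusted p 0.387).

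Genes on which these inhibitors act were also without calls on their brightest probe sets. In presbycusis against good hearing, 0 of 17 measured cyclin D, CDK, RB and E2F genes were called (median -0.03), and 0 of 21 proliferation genes (median 0.05). At an unadjusted p under 0.05 there were 0 of 17 and 5 of 21 (7.99% of all probe sets). Pcna, the replication clamp that binds p21 and GADD45 proteins, differed by 0.40 in severe against young mice (SE 0.13, limma adjusted p 0.271). Mcm2, a subunit of the replicative helicase, differed there by 0.63 (SE 0.24, adjusted p 0.443). These proliferation genes were named for the smallest p in severe against young mice. In that comparison 10 of the 21 lay above 0 and 11 below, with a median of -0.01. Of the kinases and partners of GADD45 proteins, 0 of 13 were called (median -0.05).

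Of 34 listed senescence secretory and marker genes, 32 were measured, and Ccl3 and Mmp12 were the only ones called on their brightest probe sets. In presbycusis against good hearing, 8 of the 32 had an unadjusted p under 0.05 (7.99% of all probe sets). Ccl3, an inflammatory chemokine, had a median intensity of 18.5 in young, 18.7 in middle-aged, 34.4 in mild and 99.1 in severe mice (49.98 to 134 in the severe group, which overlapped the young range of 7.07 to 66.0). It rose by 1.01 in presbycusis against good hearing (SE 0.16, limma adjusted p 0.000128) and by 1.39 in severe against young mice (SE 0.27, adjusted p 0.00311). Mmp12, a macrophage elastase, rose by 0.99 in severe against middle-aged mice (SE 0.21, adjusted p 0.0101). Of the 15 microglial markers, 10 rose in severe against young and 8 in severe against middle-aged mice, and their part in these values was not tested. Timp2, an inhibitor of matrix proteases, rose by 0.50 in presbycusis against good hearing on a dimmer probe set, 1460287_at (SE 0.11, adjusted p 0.00587), while its brightest, 1454677_at, differed by -0.11 (SE 0.16, adjusted p 0.927).

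Cdkn1a and Gadd45 genes also respond to neuronal activity and to glucocorticoids in other settings, so both kinds of response genes were listed. Of 17 measured immediate early genes, 0 were called in presbycusis against good hearing, with 12 below 0 and a median of -0.18, and 8 had an unadjusted p under 0.05 (7.99% of all probe sets did). Fos differed by -0.95 in severe against young mice (SE 0.30, limma adjusted p 0.231). Of 10 glucocorticoid response genes, 0 were called on their brightest probe sets, with 7 above 0 and a median of 0.22. At an unadjusted p under 0.05 there were 4 of the 10 in the same comparison. Sgk1, a kinase gene, differed by 0.88 in severe against young mice (SE 0.34, adjusted p 0.434). Klf9, a transcription factor gene, fell by 0.70 in presbycusis against good hearing on 1 of its probe sets, 1422264_s_at (SE 0.18, adjusted p 0.0496), and differed by -0.23 on its brightest, 1428289_at (SE 0.14, adjusted p 0.727).

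**Figure D5:**
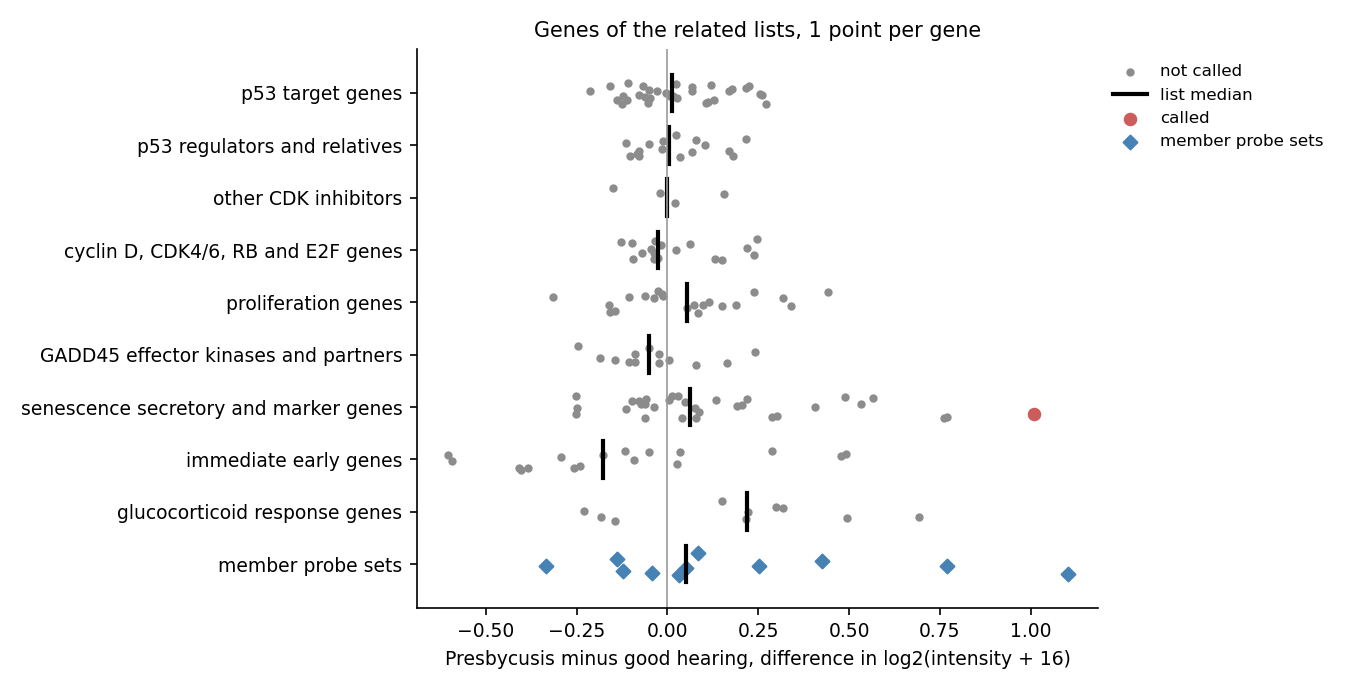
Difference between presbycusis and good hearing in log2(intensity + 16) for the genes of each related list, 1 point per gene on its brightest probe set, with the list median as a bar and the 11 member probe sets in the bottom row. The called gene, Ccl3, lies at 1.01, and the Cdkn1a probe sets lie at 0.77 and 1.10 at the upper end of the members.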

How the data were processed

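Total RNA from the inferior colliculus of 39 mice was labelled with biotin and hybridized to 1 MOE430A array per mouse, per the labels' protocols. The deposited values are intensities on a linear scale. No source used here names the algorithm that made them. Each array had a trimmed mean of 500.101 to 500.198, with 2% left out at each end, so the deposited arrays had been scaled to a common mean. Group and sex came from the labels. The members and lists were chosen with earlier results of these data known.

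The 64 array controls among 22690 probe sets were excluded. Group means, adjusted for sex, were fitted to log2(intensity + 16) on all 39 arrays by limma 3.58.1 (R 4.3.3) with a variance trend (34 residual degrees of freedom, prior 5.58). Permutation tests used scipy 1.17.1. Named genes were all member probe sets, called list genes, and the 2 list genes with the smallest p in severe minus young mice. The brightest probe set stood for a listed gene. A further 288 columns of per-sample values, covering 33 probe sets and 0 members, were not used. Simulated data with known changes were used to test the fit. Alternatives covered normalization, pseudocounts, filters, covariates, sexes and each mouse of the 3 smaller groups left out.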

Additional observations from a re-analysis of the deposited data

Results flagged for a closer look

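For each of the 11 member probe sets, the highest and lowest mouse of the young (8 mice), mild (9) and severe (5) groups were compared with the rest of their group; the 17 middle-aged mice were not tested. Of these 33 groups, 4 held a mouse that stood apart. Chance gives about 1 in 20 such groups. Cdkn2a had its lowest severe mouse, replicate 3, at 5.356 on the log2(intensity + 16) scale, where the nearest severe mouse had 6.479. Cdkn2c had its highest severe mouse, replicate 1, at 9.304, with the nearest at 8.687. Gadd45a had its lowest young mouse, replicate 4, at 6.287, with the nearest at 6.86. Gadd45b on 1449773_s_at had its lowest mild mouse, replicate 8, at 5.09, with the nearest at 6.321. The bright Cdkn1a males, young replicate 8 and severe replicate 4, did not pass this criterion, but on 1424638_at both missed it only narrowly. There they stood at 10.02 and 10.75, with the nearest mice of their groups at 8.74 and 9.06.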

How the results depend on the processing

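Under 37 alternatives (22 of which left out 1 mouse), 74 of the 77 member differences were never called, and 36 changed sign under at least 1 alternative. The 3 called somewhere were all of Cdkn1a. For presbycusis against good hearing, the number of member probe sets called was 0 as reported, 2 with quantile normalization, and 1 without the 40% dimmest probe sets or with a robust variance trend. It ranged from 0 to 2 when 1 mouse was left out. It was 1 without severe replicate 1, mild replicate 2 or mild replicate 7, and 2 without severe replicate 3, young replicate 2, young replicate 8 or mild replicate 3. For severe against middle-aged mice the number was 1 with only the groups compared, and 0 to 1 with 1 mouse left out (1 without young replicate 8). For the F-test it was 0 to 1 (1 without young replicate 8). Fewer probe sets were tested without the dimmest; the causes of the other shifts were not tested. The number of listed pathway genes called in severe against young mice was 1, then 2 with quantile normalization, median centring, a pseudocount of 64 or every probe set of each gene, and 0 without the dimmest. In severe against middle-aged mice it was 2, then 4 with every probe set and 0 without the dimmest. In presbycusis against good hearing it was 1, then 4 with quantile normalization, 3 with every probe set and 0 without the dimmest. Ccl3 and Mmp12, the genes called in these 3 comparisons, were themselves among the 40% dimmest. Without the dimmest they were not tested, which is how these counts came to 0. The 12 differences with an unadjusted p under 0.05 kept their sign under every alternative examined. Males alone were not examined in comparisons that include severe mice, as that group had 1 male. The 36 differences that changed sign were all above that p. Among these, presbycusis minus good hearing ranged from -0.12 to 0.16 for Cdkn2a, from -0.02 to 0.13 for Cdkn2c and from -0.13 to 0.07 for Gadd45b on 1449773_s_at. No paired analysis was possible because each mouse has its own number and replicate numbers only follow the order of the samples.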
